A study of Mus musculus with 14 samples.

Results

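The genes described here make, sense and move cholesterol in the liver. The set was 28 listed mouse symbols, found by name among the 37681 genes of the count table and joined to its libraries by Ensembl identifier. Of the 28, 27 had enough reads to be tested, among 17223 tested genes in all. RNA from whole liver was sequenced in 14 mice, with 1 library per mouse: 7 mice were on a diet labelled high fat/high sucrose (HFHS) and 7 on one labelled low fat/low sucrose (LFLS). The labels name no genotype and no further treatment for any of them. The sources used here give no strain, sex, age or time on the diets. Titles began with the number 1 for HFHS 1 to 4 and LFLS 1 to 4, and with 2 for HFHS 5 to 7 and LFLS 5 to 7. What this title number marks is not given, so values within each number stand beside the pooled ones where they matter.

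Cholesterol is built from acetyl-CoA through mevalonate, farnesyl diphosphate, squalene and lanosterol, and the last steps trim and rearrange the sterol ring and side chain. The transcription factor SREBP2 switches on the genes of the whole route when membranes of the endoplasmic reticulum run low in sterol: SCAP escorts it to the Golgi for cleavage, and the INSIG proteins hold it back when sterol is plentiful. In liver this control sets how much cholesterol is made against how much is taken up from lipoproteins, stored as ester or passed into bile.

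The promoters of the 3 tested members with the smallest p by diet are shown because the results below turn on these genes. They are RefSeq windows on GRCm38.p6, from 250 bases before to 50 bases after the annotated start, written 5′ to 3′ on the gene's strand. Capitals mark, on either strand, TCACNCCA (a core of the sterol regulatory element that SREBPs bind), CCAAT (the NF-Y box), GGGCGG (the GC box of SP1) and CACGTG (an E-box). Sc4mol, listed by RefSeq as Msmo1, lies at chr8:64733529-64733828 on the minus strand, Sc5d at chr9:42264251-42264550 on the minus strand and Insig1 at chr5:28071162-28071461 on the plus strand.
Sc4mol: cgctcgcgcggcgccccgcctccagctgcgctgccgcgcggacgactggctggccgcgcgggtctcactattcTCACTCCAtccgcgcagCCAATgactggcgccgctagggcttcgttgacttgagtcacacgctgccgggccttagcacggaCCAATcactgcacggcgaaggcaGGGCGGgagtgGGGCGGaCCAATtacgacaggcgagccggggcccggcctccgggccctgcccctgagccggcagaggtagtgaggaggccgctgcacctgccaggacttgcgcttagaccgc
Sc5d: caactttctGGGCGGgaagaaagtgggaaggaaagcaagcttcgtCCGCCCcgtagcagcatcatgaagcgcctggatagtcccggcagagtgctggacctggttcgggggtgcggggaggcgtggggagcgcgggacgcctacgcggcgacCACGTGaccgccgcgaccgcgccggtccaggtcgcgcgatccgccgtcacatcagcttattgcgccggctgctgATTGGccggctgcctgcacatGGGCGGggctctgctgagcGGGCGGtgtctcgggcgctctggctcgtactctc
Insig1: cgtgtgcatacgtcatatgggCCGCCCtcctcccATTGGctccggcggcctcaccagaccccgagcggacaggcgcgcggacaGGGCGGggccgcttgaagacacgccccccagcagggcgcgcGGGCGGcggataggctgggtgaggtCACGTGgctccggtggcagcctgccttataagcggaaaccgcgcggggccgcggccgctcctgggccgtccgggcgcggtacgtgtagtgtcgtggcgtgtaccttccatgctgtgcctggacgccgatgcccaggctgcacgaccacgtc
The Sc4mol window held 1 TCACNCCA match, 3 CCAAT boxes and 2 GC boxes. The windows of Sc5d and Insig1 held 1 CCAAT box and 1 E-box each, with 4 GC boxes in Sc5d and 3 in Insig1, and neither held TCACNCCA. A TCACNCCA match followed by AT would also hold CCAAT, and no matches overlapped in these 3 windows. Windows were found for 22 of the 28 members. Shares over all genes cover the 27025 with a window, whether or not they were tested in these livers. CCAAT was present in 20 of the 22, against 41.1% of the 27025 genes, and GGGCGG in 20 of the 22, against 38.2%. TCACNCCA was present in 3 of the 22 (Hmgcs1, Sc4mol and Srebf2), against 4.97% of genes, and CACGTG in 5 of the 22, against 8.09%. These are letter matches and not binding sites, and an absent match says nothing of the factor.

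Libraries held 18.2 to 45.4 M counts (M, mega) in HFHS and 18.3 to 52.8 M in LFLS. The lowest count of a tested member was 69 (Soat1 in LFLS 6). Levels are given as CPM, counts scaled to the library's total after TMM, a correction for differences in library composition. The sums of cell type markers that follow were scaled to library totals alone, without TMM. The hepatocyte markers summed to 72100 to 114000 CPM in HFHS and 86400 to 125000 CPM in LFLS, and all 9 were detected. No marker of hepatocytes, Kupffer cells, endothelium, stellate cells, bile ducts, lymphocytes or exocrine pancreas was called between the diets by edgeR, while DESeq2 called 5 of the 53 lower in HFHS, beside 7.30% of all genes called either way, and limma voom called 3 lower, beside 19.0%. In edgeR 10 of the 53 had an unadjusted p under 0.05, beside 19.6% of all genes, and in title number 2 alone 24 had one, beside 20.6%; the part of these markers in the results was not tested. The 12 pancreas markers summed to 15.3 to 448 CPM in HFHS and 17.3 to 1700 CPM in LFLS, highest in LFLS 2. Deviations of LFLS 1 from the mean of its diet followed gene GC content at r = 0.55 across genes, against -0.287 to 0.191 in HFHS. This r was 0.235, 0.334 and 0.0785 in LFLS 2 to 4, of title number 1. It was -0.497, -0.367 and -0.475 in LFLS 5 to 7, of title number 2. LFLS 1 was the highest or lowest LFLS library for 57.2% of all tested genes. In bulk tissue, fewer cells of a type and less RNA per cell cannot be told apart.

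Sc4mol and Sc5d, which encode a pair of oxidases acting between lanosterol and cholesterol, were higher in HFHS livers, and no member was called lower. In these data "called" means a Benjamini-Hochberg adjusted p under 0.05 in edgeR's quasi-likelihood test over all tested genes. These 2 of 27 members compare with 2.81% of all tested genes called in either direction, 1.37% called higher and 1.44% called lower. The log2 fold change of HFHS over LFLS was above 0 in 20 of the 27 and below 0 in 7, with a median of 0.23, against 48.7% above 0 and a median of -0.01 over all tested genes. At an unadjusted p under 0.05 there were 8 members, 5 of them higher and 3 lower, where 19.6% of all genes reached that level. DESeq2 and limma voom called no member lower either. No member separated the diets without overlap, as 1.65% of all genes did. The authors' deposited table listed no member with an adjusted p under 0.05, among 37 genes that had one. Other tools and settings moved the count: limma voom called 5 members (Sc4mol, Sc5d, Insig1, Acat2 and Fdft1) beside 19.0% of all genes, and edgeR with offsets for GC content 1 member (Sc4mol) beside 3.94%. DESeq2 called 2 members beside 7.30%, edgeR with the title number as a block 2 beside 8.94%, and edgeR with both GC offsets and this block 2 (Sc4mol and Fdft1) beside 7.73%. Leaving out 1 library gave no called member in 11 of 14 edgeR fits, 1 without HFHS 1, 3 without LFLS 1 (Fdft1, Sc5d and Insig1) and 2 without LFLS 6.

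**Figure D1:**
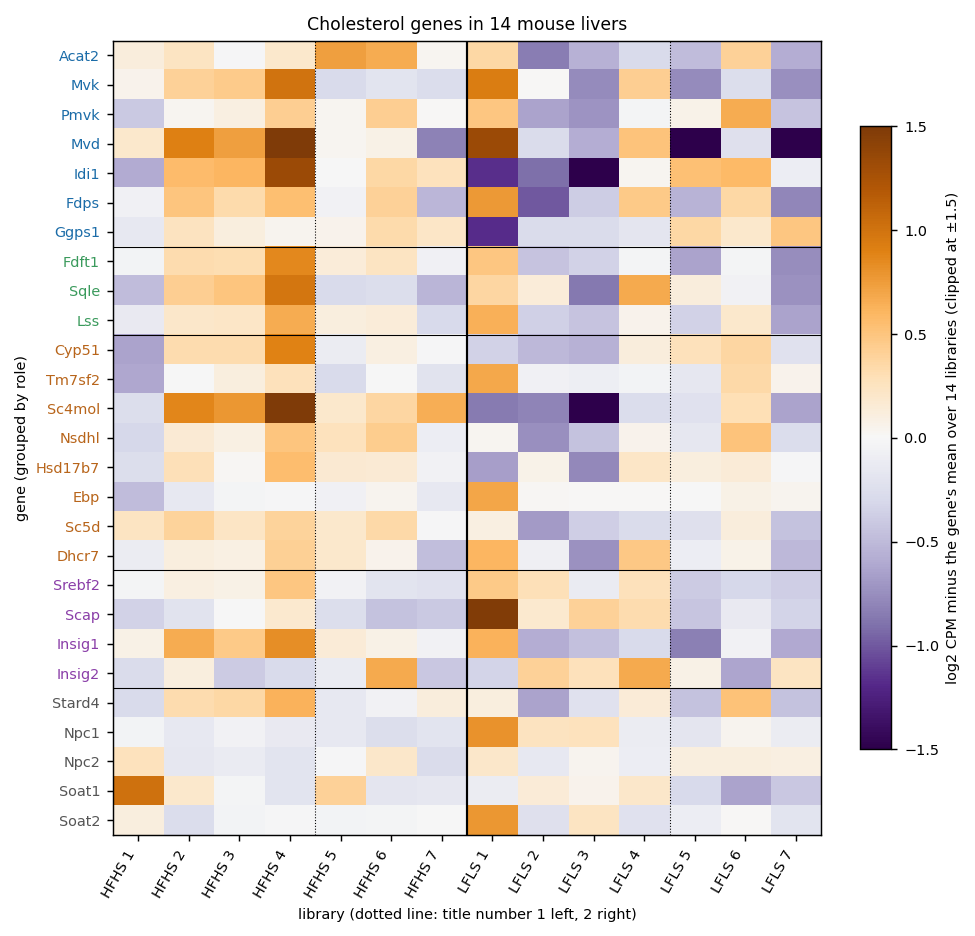
Levels of the 27 tested members in each liver. Rows are genes grouped by role, columns are libraries with HFHS left of LFLS, and colour is log2 CPM minus the gene's mean over the 14 libraries. HFHS 4 is high in most rows of the synthesis pathway, while LFLS 1 is high for Scap, Mvd and Npc1 and low for Idi1, Ggps1 and Sc4mol.

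Sc4mol (ENSMUSG00000031604, chromosome 8) encodes the methylsterol monooxygenase that begins removal of the methyl groups at carbon 4 of the sterol ring. Its level was 113, 211 and 379 CPM in HFHS livers and 42.4, 86.3 and 165 CPM in LFLS livers (lowest, median and highest of 7 each). HFHS 4 was the highest liver and LFLS 3 the lowest, and only the HFHS livers 1 and 5 fell below the highest LFLS liver. The mean was 215 ± 85.8 CPM in HFHS and 95.9 ± 39.0 CPM in LFLS (SD, n = 7 each). The edgeR log2 fold change was 1.16 ± 0.28 (SE), with a 95% interval of 0.57 to 1.76, a fold of 2.24 and an adjusted p of 0.0384. The authors' deposited table gave an adjusted p of 0.15.

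The difference in Sc4mol was larger among mice of title number 1 than of title number 2, without a call for that contrast. Title number 1 held 113 to 379 CPM in HFHS and 42.4 to 111 CPM in LFLS, with no overlap, and a log2 fold change of 1.68 (edgeR adjusted p = 0.0327). Title number 2 held 153 to 211 CPM in HFHS and 86.3 to 165 CPM in LFLS, with overlap, and a log2 fold change of 0.56 (edgeR adjusted p = 0.223). The interaction of diet and title number was -1.11 ± 0.51 on the log2 scale (SE), with an edgeR p of 0.0466 and an adjusted p of 0.212. Leaving out 1 library at a time kept the log2 fold change between 0.97 and 1.36, but the adjusted p stayed under 0.05 in only 2 of the 14 fits, without HFHS 1 (0.0351) and without LFLS 6 (0.0168), and otherwise lay between 0.0526 and 0.0862.

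Sc5d (ENSMUSG00000032018, chromosome 9) encodes lathosterol oxidase, which puts the second double bond into the sterol ring late in the pathway. Its level was 387, 461 and 517 CPM in HFHS livers and 244, 324 and 427 CPM in LFLS livers (lowest, median and highest of 7 each). The HFHS livers lay close together, and HFHS 7 alone fell within the LFLS range, below LFLS 1 and LFLS 6. The mean was 469 ± 45.4 CPM in HFHS and 334 ± 67.4 CPM in LFLS (SD, n = 7 each), a log2 fold change of 0.49 ± 0.13 (SE, 95% interval 0.22 to 0.76) with an edgeR adjusted p of 0.0482. Within title number 1 the log2 fold change was 0.61 (edgeR adjusted p = 0.0457) without overlap, and within title number 2 it was 0.36 (edgeR adjusted p = 0.274) with overlap. The call was lost with offsets for GC content, at 0.30 and an adjusted p of 0.308 in edgeR. It was kept in 2 of 14 fits without 1 library, those without LFLS 1 (0.023) and LFLS 6 (0.0206), and the other 12 gave adjusted p-values of 0.0544 to 0.112.

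**Figure D2:**
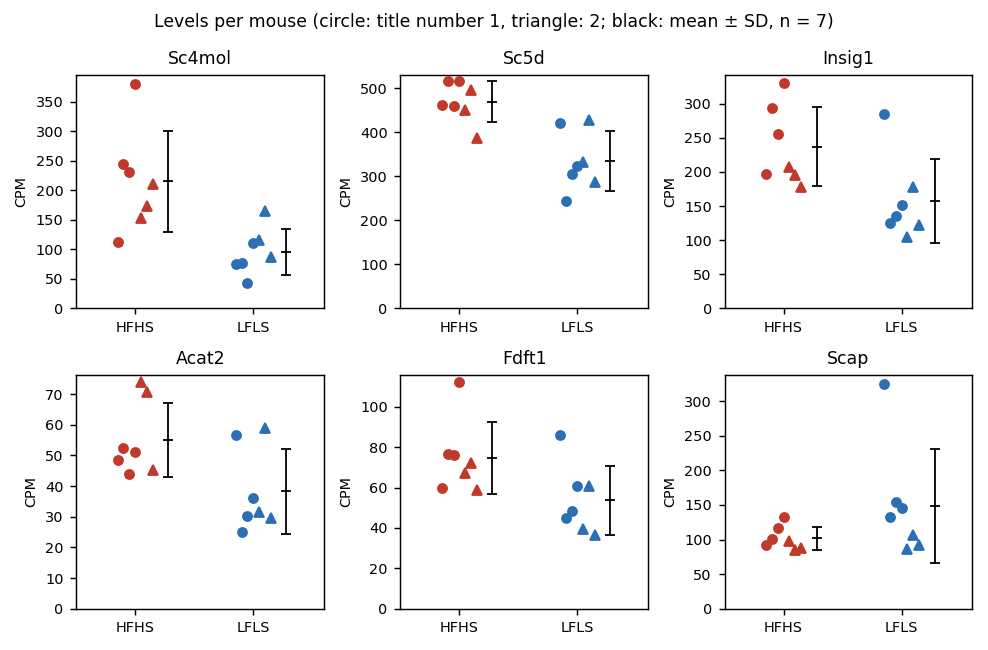
CPM of 6 members in each mouse, HFHS left of LFLS. Circles are mice of title number 1, triangles mice of title number 2, and the black bar is the mean ± SD of 7 mice. Sc4mol and Sc5d lie higher in most HFHS mice, and the LFLS mouse at 325 CPM for Scap is LFLS 1.

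The other 6 tested members between lanosterol and cholesterol were not called. Cyp51, the lanosterol demethylase, averaged 161 ± 53.7 CPM in HFHS and 133 ± 35.3 CPM in LFLS (SD, n = 7 each), with a log2 fold change of 0.27 (edgeR adjusted p = 0.501). Nsdhl, the dehydrogenase that follows the Sc4mol enzyme, and Hsd17b7, the ketoreductase after it, had log2 fold changes of 0.27 and 0.24 (edgeR adjusted p = 0.395 and 0.445). Dhcr7, which makes cholesterol from 7-dehydrocholesterol, stood at 83.1 ± 15.0 CPM in HFHS and 81.3 ± 26.6 CPM in LFLS (SD, n = 7 each). None of these 4 enzymes around Sc4mol and Sc5d in the route passed the test.

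Ebp and Tm7sf2 were the 2 members of this stretch with a log2 fold change below 0. Ebp, the sterol isomerase before Sc5d, was at 101, 136 and 145 CPM in HFHS and 140, 143 and 229 CPM in LFLS (lowest, median and highest of 7 each). LFLS 1 alone was at 229 CPM, and the other 6 LFLS livers lay between 140 and 149 CPM. Ebp had a log2 fold change of -0.26 ± 0.12 (SE, edgeR adjusted p = 0.254) with LFLS 1 and -0.14 (edgeR adjusted p = 0.363) without it. Tm7sf2, a sterol reductase acting just after Cyp51, gave -0.22 (edgeR adjusted p = 0.452), or -0.10 (edgeR adjusted p = 0.726) without LFLS 1.

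From acetyl-CoA to farnesyl diphosphate and its branch, all 7 tested members had a log2 fold change above 0, with a median of 0.27, and none was called. Acat2, the cytosolic thiolase that joins 2 acetyl-CoA, was at 44.0, 51.0 and 73.8 CPM in HFHS and 24.9, 31.6 and 58.8 CPM in LFLS (lowest, median and highest of 7 each). All 7 HFHS livers lay above the LFLS median, but LFLS 1 and LFLS 6 reached into the HFHS range. Acat2 thus had a log2 fold change of 0.52 ± 0.20 (SE, edgeR adjusted p = 0.163). Acat3, a close relative whose reads could be exchanged with those of Acat2 in counting, gave -0.03 ± 0.10 (SE, edgeR adjusted p = 0.903). Hmgcs1, the HMG-CoA synthase, has no value here: both identifiers with this symbol stood at a count of 1, the table's lowest value, in all 14 libraries. The identifier joined here has no exons in GENCODE M21, so this count is not read as low expression of the gene.

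The mevalonate kinases and the isomerase varied widely among mice. Mvk, mevalonate kinase, averaged 13.6 ± 4.92 CPM in HFHS and 11.2 ± 5.68 CPM in LFLS, and Pmvk, phosphomevalonate kinase, 41.1 ± 7.87 CPM in HFHS and 38.1 ± 14.5 CPM in LFLS (SD, n = 7 each). Mvd, the decarboxylase that makes isopentenyl diphosphate, was at 7.28, 14.8 and 37.9 CPM in HFHS and 3.58, 10.7 and 32.5 CPM in LFLS (lowest, median and highest of 7 each). These ranges overlap almost wholly, with HFHS 4 and LFLS 1 as the high livers, and the log2 fold change of Mvd was 0.58 ± 0.45 (SE, edgeR adjusted p = 0.50), with 0.31 (edgeR adjusted p = 0.736) without HFHS 4 and 1.02 (edgeR adjusted p = 0.173) without LFLS 1.

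Idi1, the isomerase that turns isopentenyl into dimethylallyl diphosphate, was at 86.4, 166 and 325 CPM in HFHS and 46.0, 121 and 193 CPM in LFLS (lowest, median and highest of 7 each). HFHS 4 was again the highest, and the log2 fold change was 0.63 ± 0.34 (SE, edgeR adjusted p = 0.313). That value was 1.40 within title number 1 and -0.15 within title number 2. The interaction was -1.55 ± 0.55 (SE) with an edgeR p of 0.0144 and an adjusted p of 0.124, so the contrast between title numbers was not called. Over all genes 0.883% had a called interaction in edgeR. None of the 27 members did, and 3 of them (Idi1, Sc4mol and Ggps1) had an unadjusted p under 0.05, against 22.6% of all genes.

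Fdps, which makes farnesyl diphosphate, averaged 54.5 ± 13.5 CPM in HFHS and 46.7 ± 22.0 CPM in LFLS (SD, n = 7 each), with a log2 fold change of 0.22 (edgeR adjusted p = 0.672). Ggps1, which makes geranylgeranyl diphosphate for protein prenylation, averaged 9.54 ± 1.05 CPM in HFHS and 8.48 ± 2.88 CPM in LFLS (SD, n = 7 each), with a log2 fold change of 0.17 (edgeR adjusted p = 0.662). LFLS 1 was its lowest liver, at 3.82 CPM.

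The 3 members from farnesyl diphosphate to lanosterol had log2 fold changes of 0.12 to 0.47, and none was called. Fdft1, squalene synthase, was at 58.8, 72.2 and 112 CPM in HFHS and 36.4, 48.3 and 85.9 CPM in LFLS (lowest, median and highest of 7 each). HFHS 4 was the highest liver and LFLS 1 the highest of its diet. The log2 fold change was 0.47 ± 0.19 (SE, edgeR adjusted p = 0.181), with 0.35 (edgeR adjusted p = 0.297) without HFHS 4 and 0.62, a call, without LFLS 1 (edgeR adjusted p = 0.0463). Fdft1 shares 774 of 4227 exon bases with Ctsb on the opposite strand in GENCODE M21, and as no strand setting is stated, reads from the overlap cannot be assigned. On the same strand, Fdps shares 1124 of 4208 exon bases with Gm43738, and Tm7sf2 shares 532 of 4403 with Vps51. Counts of Fdps and Tm7sf2 may thus include reads of those genes.

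Sqle, squalene epoxidase, which is one of the rate-limiting enzymes of the pathway, was at 40.8, 49.8 and 116 CPM in HFHS and 32.4, 64.2 and 94.5 CPM in LFLS (lowest, median and highest of 7 each). The diets overlapped almost wholly, and the HFHS median was the lower one. Sqle had a log2 fold change of 0.12 ± 0.27 (SE, edgeR adjusted p = 0.845). Lss, lanosterol synthase, averaged 60.1 ± 13.2 CPM in HFHS and 51.4 ± 17.1 CPM in LFLS (SD, n = 7 each), with a log2 fold change of 0.23 (edgeR adjusted p = 0.537).

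**Figure D3:**
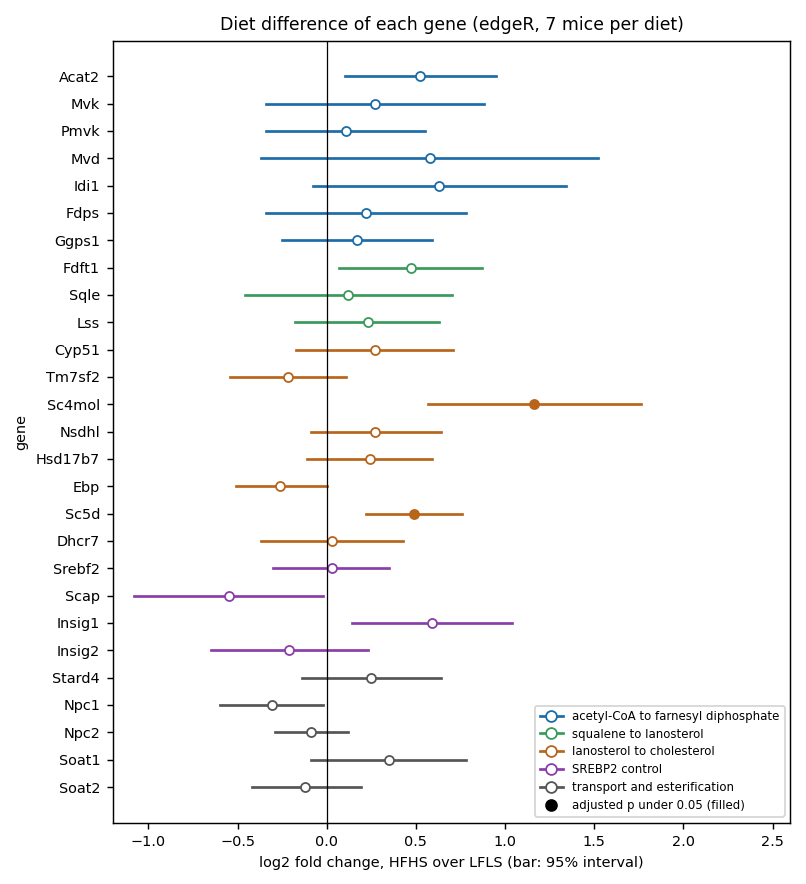
Diet difference of the 27 tested members, as log2 fold change of HFHS over LFLS with its 95% interval from edgeR. Genes run down the page by role, and filled points have an adjusted p under 0.05. Sc4mol at 1.16 and Sc5d at 0.49 are the filled points, and Scap at -0.55 lies lowest.

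The 4 members that control SREBP2 showed no common direction, and none was called. Srebf2, the gene of SREBP2 itself, averaged 59.7 ± 10.5 CPM in HFHS and 58.5 ± 14.7 CPM in LFLS (SD, n = 7 each). Its log2 fold change was 0.03 ± 0.15 (SE, 95% interval -0.30 to 0.35, edgeR adjusted p = 0.936). The transcript level does not report how much SREBP2 protein was cleaved.

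Insig1, which retains SCAP in the endoplasmic reticulum and is itself a target of SREBP2, was at 178, 207 and 331 CPM in HFHS and 104, 135 and 285 CPM in LFLS (lowest, median and highest of 7 each). All 7 HFHS livers were above the LFLS median. LFLS 1, at 285 CPM, lay within the HFHS range. LFLS 6 stood at 178 CPM, as did HFHS 7, the lowest HFHS liver. The log2 fold change was 0.59 ± 0.21 (SE, edgeR adjusted p = 0.140). Without LFLS 1 it was 0.80 and called (edgeR adjusted p = 0.0191), and without HFHS 4 it was 0.49 (edgeR adjusted p = 0.222). Insig2, the related protein whose liver transcript is not driven by SREBP2, averaged 235 ± 73.0 CPM in HFHS and 273 ± 78.6 CPM in LFLS (SD, n = 7 each). Its log2 fold change was -0.21 ± 0.21 (SE, edgeR adjusted p = 0.599).

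Scap, the SREBP escort, was at 85.0, 98.0 and 132 CPM in HFHS and 85.9, 132 and 325 CPM in LFLS (lowest, median and highest of 7 each). The value of 325 CPM was LFLS 1, and the other LFLS livers lay between 85.9 and 154 CPM. Scap had a log2 fold change of -0.55 ± 0.25 (SE, edgeR adjusted p = 0.235), and without LFLS 1 it was -0.23 (edgeR adjusted p = 0.426). It was -0.76 within title number 1 (edgeR adjusted p = 0.105) and -0.06 within title number 2 (edgeR adjusted p = 0.784). Scap shares 985 of 7443 exon bases with 5830462I19Rik on the opposite strand, so its count may include reads of that gene. The GC content of its exons was 59.1%, the highest of the tested members, and with GC offsets the log2 fold change was -0.35 (edgeR adjusted p = 0.217).

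The 5 members that move or store cholesterol were not called either. Npc1 and Npc2 pass cholesterol out of lysosomes. Npc1 was at 138, 149 and 160 CPM in HFHS and 145, 170 and 287 CPM in LFLS (lowest, median and highest of 7 each), with LFLS 1 as the highest. Its log2 fold change was -0.31 ± 0.13 (SE, edgeR adjusted p = 0.217), or -0.17 (edgeR adjusted p = 0.299) without LFLS 1. Npc2 averaged 56.2 ± 8.31 CPM in HFHS and 59.6 ± 5.02 CPM in LFLS (SD, n = 7 each).

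Stard4, a cytosolic sterol carrier, averaged 168 ± 37.5 CPM in HFHS and 141 ± 42.4 CPM in LFLS (SD, n = 7 each), with a log2 fold change of 0.25 (edgeR adjusted p = 0.477). Soat1 and Soat2 esterify cholesterol for storage or export, and Soat2 is the form of hepatocytes. Soat2 averaged 41.5 ± 3.11 CPM in HFHS and 45.0 ± 13.2 CPM in LFLS, and Soat1 5.04 ± 1.82 CPM in HFHS and 3.97 ± 0.839 CPM in LFLS (SD, n = 7 each). Their log2 fold changes were -0.12 and 0.35 (edgeR adjusted p = 0.681 and 0.359).

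Per kilobase of exon, using GENCODE M21 lengths, Sc5d had the highest level of the 27 members in HFHS, at 96.5 CPM per kb against 68.7 CPM per kb in LFLS. Insig2 had 67.7 CPM per kb in HFHS and 78.5 in LFLS, where it was the highest. Insig1 had 76.5 CPM per kb in HFHS and 50.9 in LFLS. Soat1 was the lowest member in both diets, at 0.514 CPM per kb in HFHS and 0.406 in LFLS, while Soat2 stood at 18.8 CPM per kb in HFHS and 20.3 in LFLS.

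**Figure D4:**
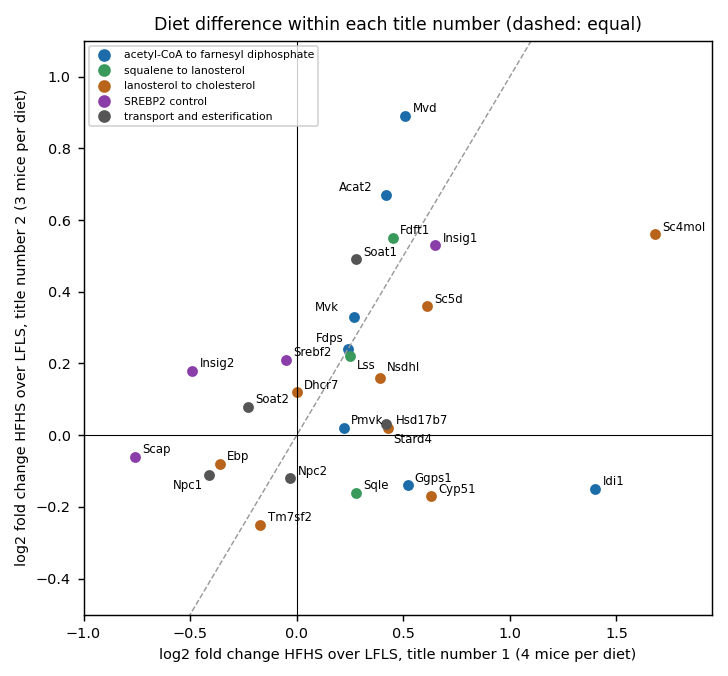
Log2 fold change of HFHS over LFLS in mice of title number 1 (horizontal axis, 4 mice per diet) against title number 2 (vertical axis, 3 mice per diet), 1 point per member, coloured by role. Points right of the dashed line had the higher value in title number 1, as Sc4mol (1.68 and 0.56) and Idi1 (1.40 and -0.15).

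At 2 decimals, both title numbers gave the same sign of the diet difference for 19 of the 27 members. Dhcr7, at 0 in title number 1 and 0.12 in title number 2, was not counted among them. Without rounding, 51.1% of all tested genes had the same sign in both. Genes not tested within a title number were counted there as not the same, which lowers this share. The median log2 fold change of the members was 0.28 in title number 1 and 0.12 in title number 2, against 0.01 over all genes in each. In title number 1 alone Sc4mol and Sc5d were called by edgeR, beside 8.49% of all genes tested there, and in title number 2 alone no member was called, beside 1.58% of genes (edgeR, 3 mice per diet), where 6 members had an unadjusted p under 0.05, beside 20.6% of genes. With the diet held in the model, the title number itself (2 over 1) was called for 5 members, beside 28.8% of all genes. Mvk (-0.80), Mvd (-1.30), Srebf2 (-0.46) and Scap (-0.64) were lower in title number 2, and Ggps1 (0.47) was higher, all on the log2 scale with edgeR adjusted p-values of 0.0162, 0.0141, 0.00732, 0.0306 and 0.0399 in that order. Without LFLS 5 or LFLS 6 this count was 3, and without LFLS 7 it was 2.

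Within a diet the members varied more from mouse to mouse than most genes. The residual SD of log2 CPM after removing diet and title number had a median of 0.39 over the 27 members and 0.24 over all tested genes. Among the 1000 genes nearest in level, 20 of the 27 members stood at or above the 75th percentile of this SD and none stood below the 25th. HFHS 4 was the highest HFHS liver for 17 of the 27 members, against 14.9% of all genes. HFHS 7 was the lowest HFHS liver for 11 members, against 19.0% of all genes. LFLS 1 was the highest LFLS liver for 14 members and the lowest for 1, against 28.8% and 28.4% of all genes, and the 15 members where it was at either end compare with 57.2% of all genes.

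Most of the synthesis enzymes, and Srebf2, were positively correlated with Sqle between mice. Sqle was taken as the gene for comparison in place of Hmgcs1 after Hmgcs1 was found at the table's lowest count. With log2 CPM centred within each diet and title number, the median Pearson r with Sqle over 14 livers was 0.55 for the other 26 members, against -0.01 over all genes. The r was positive for 21 of the 26, against 48.6% of all genes, and 9 of the 26 were among the 172 genes (1%) with the highest r. The points share libraries, depth and GC effects, and their part in the correlations was not tested.

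Sc4mol followed Sqle at r = 0.89 and Spearman's rho = 0.68 (exact permutation p = 0.00309), and at r = 0.68 without the 2 libraries farthest from the Sqle median, HFHS 1 and LFLS 3. Idi1 followed it at r = 0.88 and rho = 0.84 (exact permutation p = 0.00386), and at 0.78 without those 2. Cyp51 had r = 0.86 and rho = 0.89 (exact permutation p = 0.000916), with 0.91 without the 2. Dhcr7 had r = 0.84 and rho = 0.84 (exact permutation p = 0.000772), with 0.76 without them. The Spearman correlations had exact permutation p-values of 0.0237, 0.00222, 0.00053 and 0.00116 for Sc4mol, Idi1, Cyp51 and Dhcr7 in that order. Two-sided unadjusted p-values of r were under 0.05 for 12 members, all positive, where 2.27% of all genes had a positive r at that level, and their r without the 2 libraries ranged from 0.43 to 0.91. None passed Benjamini-Hochberg adjustment over all 17222 genes, where 0.00% of genes passed, with 0.999 as the lowest adjusted permutation p of any gene, so the correlations are given as descriptions. With 20736 permutations a single gene could reach no adjusted p below 0.831, so this adjustment could hardly be passed.

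Sc5d, the other called member, had an r of 0.39 with Sqle and Insig1 one of 0.48. Insig2 (0.01), Ggps1 (-0.08), Npc1 (-0.12), Soat2 (-0.14), Npc2 (-0.37) and Soat1 (-0.47) had the lowest r of the 26 members. The median r over the 26 members was 0.67 in title number 1, 0.49 in title number 2 and 0.44 without HFHS 1 and LFLS 3. Srebf2, at 0.78 over all livers, had 0.43 without those 2, 0.86 in title number 1 and 0.18 in title number 2. Sc4mol stood at 0.97 in title number 1 and 0.48 in title number 2, while Sc5d stood at 0.31 and 0.70. Insig1 was at 0.95 within HFHS and 0.30 within LFLS, while Dhcr7 was at 0.69 and 0.92. The 10 genes with the highest r over the 14 livers were Dntt, Fabp5, Gm11839, Sc4mol, Lsr, Slc19a3, Idi1, Tbc1d2, Mrpl35 and Gm2301, at r of 0.86 to 0.91, and 2 of them are members.

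**Figure D5:**
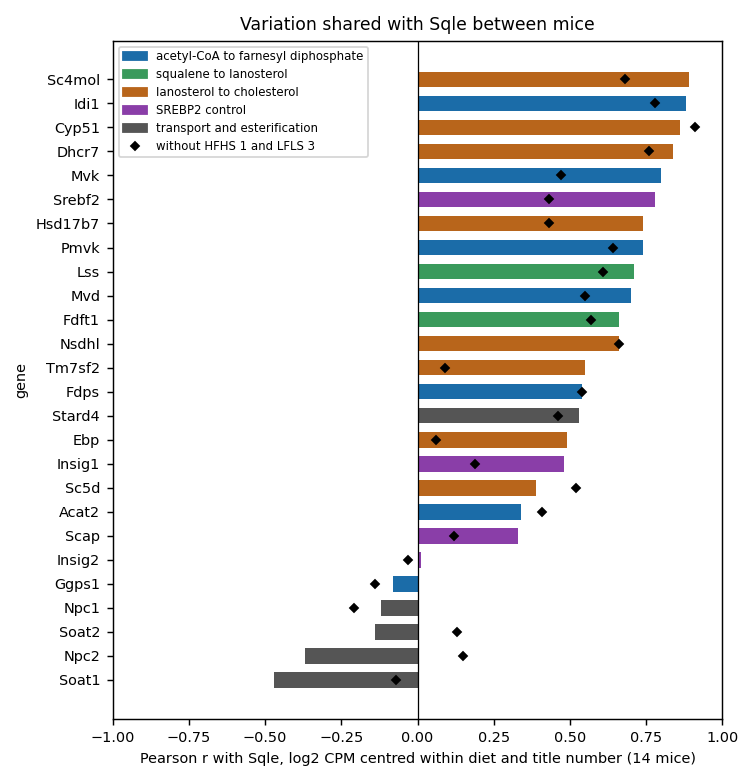
Pearson r of each member with Sqle over 14 livers, on log2 CPM centred within diet and title number. Bars are coloured by role, and diamonds give r without HFHS 1 and LFLS 3. The upper bars, from Sc4mol at 0.89, are synthesis enzymes and Srebf2 at 0.78, and the bars below 0 are Ggps1 at -0.08 and the esterification and lysosomal genes, to Soat1 at -0.47.

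Outside the set, 26 other genes were counted, most of them of sterol synthesis, sensing and transport. Fnta, Fntb, Nus1, Dhdds, Coq2 and Acat1 are in this list but act in other routes. The 26 genes had a median log2 fold change of 0.06, 16 above 0 and 10 below. Of these, 2 were called higher by edgeR and none lower, beside 2.81% of all genes called either way. At an unadjusted p under 0.05 there were 6, of them 2 lower, beside 19.6% of all genes. DESeq2 called 4, of them 1 lower, beside 7.30% of all genes, and limma voom called 9, of them 3 lower, beside 19.0%. With the title number as a block edgeR called 4, beside 8.94% of all genes. The 2 added there were Pgrmc1 and Lrp1, chosen for mention after their values were seen. Pgrmc1 had 0.36 without the block (edgeR adjusted p = 0.0166 with it). Lrp1, lower in HFHS, had -0.68 without the block (edgeR adjusted p = 0.0417 with it). It had -0.96 within title number 1 and -0.06 within title number 2. Without LFLS 1 the value for Lrp1 was -0.49 (edgeR adjusted p = 0.159). Of the 14 fits without 1 library, which had no block, Lrp1 was called in 1 and Pgrmc1 in 0. Vldlr, a receptor that takes up triglyceride-rich lipoproteins, averaged 5.78 ± 4.11 CPM in HFHS and 1.11 ± 0.823 CPM in LFLS (SD, n = 7 each), a log2 fold change of 2.35 ± 0.49 (SE, edgeR adjusted p = 0.0219) that was called in all 14 fits without 1 library. Acat1, the mitochondrial thiolase, averaged 523 ± 34.4 CPM in HFHS and 402 ± 50.6 CPM in LFLS (SD, n = 7 each), a log2 fold change of 0.38 ± 0.10 (SE, edgeR adjusted p = 0.0458) that was called in 2 of those 14 fits.

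Of 12 genes of the sterol sensor LXR and its targets, none was called by edgeR, beside 2.81% of all genes, and 1 had an unadjusted p under 0.05, beside 19.6% of all genes. DESeq2 called none, beside 7.30%, and limma voom called 2, both lower in HFHS, beside 19.0%. Their median log2 fold change was -0.21, with 4 above 0 and 8 below. The 4 with the smallest p were Nr1h3, which encodes LXR alpha (-0.25, edgeR adjusted p = 0.195), the cholesterol exporter Abca1 (-0.18, edgeR adjusted p = 0.312), and Abcg8 (-0.43, edgeR adjusted p = 0.350) and Abcg5 (-0.28, edgeR adjusted p = 0.434), which together pump sterols into bile.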

How the data were processed

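Polyadenylated RNA from 14 mouse livers was sequenced as single reads on a HiSeq2000, per the labels' protocols. Per the submitters' processing notes, CASAVA 1.8, TopHat, Bowtie and DESeq were used with build mm9. For the counting tool, its strand setting and the annotation, the sources used here have no statement. The deposited counts are whole numbers per Ensembl gene with 1 as the lowest value, which 11120 genes had throughout. The authors' results table held, as signal, mean counts after division by size factors, the fold or ratio between 2 groups the headers do not name, its log2, and p-values and adjusted p-values, per the file headers, of which adjusted p-values alone are quoted.

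The 28 symbols and all lists were chosen with earlier results of these data known. Counts were tested with edgeR 4.0.16 (R 4.3.3): TMM, its default filter by diet, a quasi-likelihood test of HFHS over LFLS without covariates, and Benjamini-Hochberg adjustment over 17223 genes. The count tests of edgeR, DESeq2 and limma voom were tested on simulated data. For the diet tests these data held no title number or GC effect, so they say nothing of how the tests handle either. CPM are TMM-scaled, except in the sums of cell type markers, and logs used a prior count of 2. DESeq2 1.42.0, limma 3.58.1 (voom) and other settings were alternatives. The named genes are all members, the called genes of the 2 other lists or otherwise up to 4 with the smallest p, and the 10 nearest to Sqle. Correlations used all 20736 exact permutations within diet and title number. The planned gene for them, Hmgcs1, stood at the lowest count throughout, and adjustment ran over all genes in place of the members. Lengths, GC content and overlaps came from GENCODE M21. P-values measure spread between separate libraries, which the labels do not tie to cages or litters. Some genes are not reported here.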

Additional observations from a re-analysis of the deposited data

Results flagged for a closer look

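Values of single livers that lay far from the rest of their diet were looked for in the 27 tested members (Dixon's test on log2 CPM at the 95% level). The values printed here are CPM, on which the test was not run. Of 54 groups of 7 livers 4 had one, and chance gives about 1 in 20. Fdft1, squalene synthase, was at 112 CPM in HFHS 4, where the other HFHS livers lay between 58.8 and 76.5 CPM. Ebp, the sterol isomerase, was at 101 CPM in HFHS 1, where the others lay between 127 and 145 CPM, and at 229 CPM in LFLS 1, where the others lay between 140 and 149 CPM. Soat2, the hepatocyte esterification enzyme, was at 35.5 CPM in HFHS 2, where the others lay between 41.2 and 46.0 CPM.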

How the results depend on the processing

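Members called numbered 2 in the main edgeR fit and 2 with DESeq2, RLE size factors, library totals alone, the stricter filter, 1 subtracted from each count and title number 1 alone. There were 5 with limma voom (Sc4mol, Sc5d, Insig1, Acat2 and Fdft1), 1 with GC offsets (Sc4mol), and 0 with no filter or with title number 2 alone. Without 1 library there were 0 to 3, and 0 in 11 of 14 fits. Over all genes 484 were called, 1258 with DESeq2, 3274 with voom, 173 with no filter, 1484 in title number 1, 269 in title number 2 and 133 to 853 without 1 library. Library totals alone moved the median of all genes to 0.04 and gave 379 higher and 152 lower, against 236 and 248; the members' median was then 0.27.

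With the title number as a replicate block 1540 genes and 2 members were called, with GC offsets and this block 1264 genes and 2 members (Sc4mol and Fdft1), and with pairs of titles 598 genes and 2 members. Paired titles correlated at -0.069 to 0.415, over 0.1 in 4 of 7 pairs, so the pairing was not taken as given. Genes called by title number were 2778 to 5514 without 1 library, and members 2 to 6. Members correlated with Sqle after adjustment numbered 0 of 26 in every setting, but a single gene could reach no adjusted p below 0.831 in the main setting, so these counts say nothing of stability.

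Of 729 single-gene values 671 kept direction and side, 30 lost and 6 gained a call, and 22 of 8 members, none over 0.18, changed sign. In title number 2 Idi1 was -0.15, Sqle -0.16, Cyp51 -0.17, Ggps1 -0.14, Insig2 0.18 and Soat2 0.08. Srebf2 was -0.05 in title number 1 and with voom. Soat2 was 0.03 with voom and 0.01 with GC offsets, alone or with the block, where Ggps1 was -0.02. Without 1 library Sqle ranged from -0.08 to 0.26, Dhcr7 from -0.06 to 0.16, Srebf2 from -0.06 to 0.12 and Soat2 from -0.17 to 0.04. Causes were not tested. Correlation with Hmgcs1 was not run, since it stood at the table's lowest count.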

Other observations

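Mir33, the microRNA gene in an intron of Srebf2, had 4 to 21 counts per library in HFHS and 10 to 49 in LFLS. These are raw counts, not scaled to library size, and no difference between the diets is read from them. Poly(A) libraries of this kind do not measure mature microRNA.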
